A study of Saccharomyces cerevisiae with 2 samples.

Results

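The 24 peroxins and 9 genes of fatty acid beta-oxidation described here were measured in *sdh3*Δ cells of *Saccharomyces cerevisiae*, and 8 of these 33 genes were above background on both arrays. The members were chosen by gene symbol, as the probe sets whose annotated gene is one of 33 listed names, out of 5656 genes that had a probe set named for 1 gene. All 33 were found, 32 of them with 1 probe set and *POX1* with 4. The series holds 1 group, the *sdh3*Δ strain, with 2 replicate arrays. The strain was derived from a CEN.PK haploid of mating type a, carried the *ura3-52* allele and was grown in aerobic batch cultures on minimal medium with glucose and added uracil. RNA was taken when 20 g/liter of glucose was left and measured on Affymetrix arrays of the Yeast Genome S98 design. No array of a strain with *SDH3* was used here, so no value below is a response to the deletion, and no test between groups was possible.

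Peroxisomes are single-membrane organelles in which yeast carries out all of its fatty acid beta-oxidation. Their matrix proteins are made in the cytosol, bound by soluble receptors that read short targeting signals, and drawn through the membrane by a set of proteins called peroxins, which also insert membrane proteins and set the number and size of the organelles. In yeast the enzymes of beta-oxidation and some peroxins are known to be repressed by glucose and induced by oleate, through the factors Oaf1, Pip2 and Adr1.

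*SDH3*, the deleted gene, which encodes a membrane subunit of succinate dehydrogenase, had intensities of 22.0 and 29.3 in replicates 1 and 2. Each transcript was read by a probe set, made of several short oligonucleotides, whose intensity is a linear value in arbitrary units and depends on these oligonucleotides as well as on the transcript, so levels of different genes were not ranked against each other. The background limit was the highest of 19 control probe sets for mouse and *Bacillus subtilis* genes, which yeast does not have, and came to 54.8 on replicate 1 and 92.1 on replicate 2. All 19 of these were higher on replicate 2, with log2 ratios of replicate 2 over replicate 1 between 0.45 and 0.89 and a median of 0.67. The 9 hybridization control probe sets, for *Escherichia coli* biotin genes and phage Cre, were also all higher there, with a median log2 ratio of 0.49. Over all 5656 genes the median log2 ratio was -0.12 with an SD of 0.73. The sources used here do not say whether the replicates came from separate cultures, so the SD given with a mean may be technical, and the number of arrays limits the precision.

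The 5 peroxins above background on both arrays fell into 4 roles: *PEX21* of the receptors, *PEX2* of the ubiquitin ligases, *PEX4* and *PEX15* of receptor recycling, and *PEX11* of organelle division. Among the beta-oxidation genes these were *FOX2*, *SPS19* and *TES1*. The 8 genes are 24.2% of the members, against 40% of all 5656 genes. By class, 5 of 24 peroxins (20.8%) and 3 of 9 beta-oxidation genes (33.3%) passed both limits. Another 14 members were above the limit on replicate 1 alone, none on replicate 2 alone, and 11 (33.3% of 33) on neither array, which held for 26.7% of all genes. On replicate 1 alone, 22 of the 33 members were above its limit, against 73.1% of all genes.

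**Figure D1:**
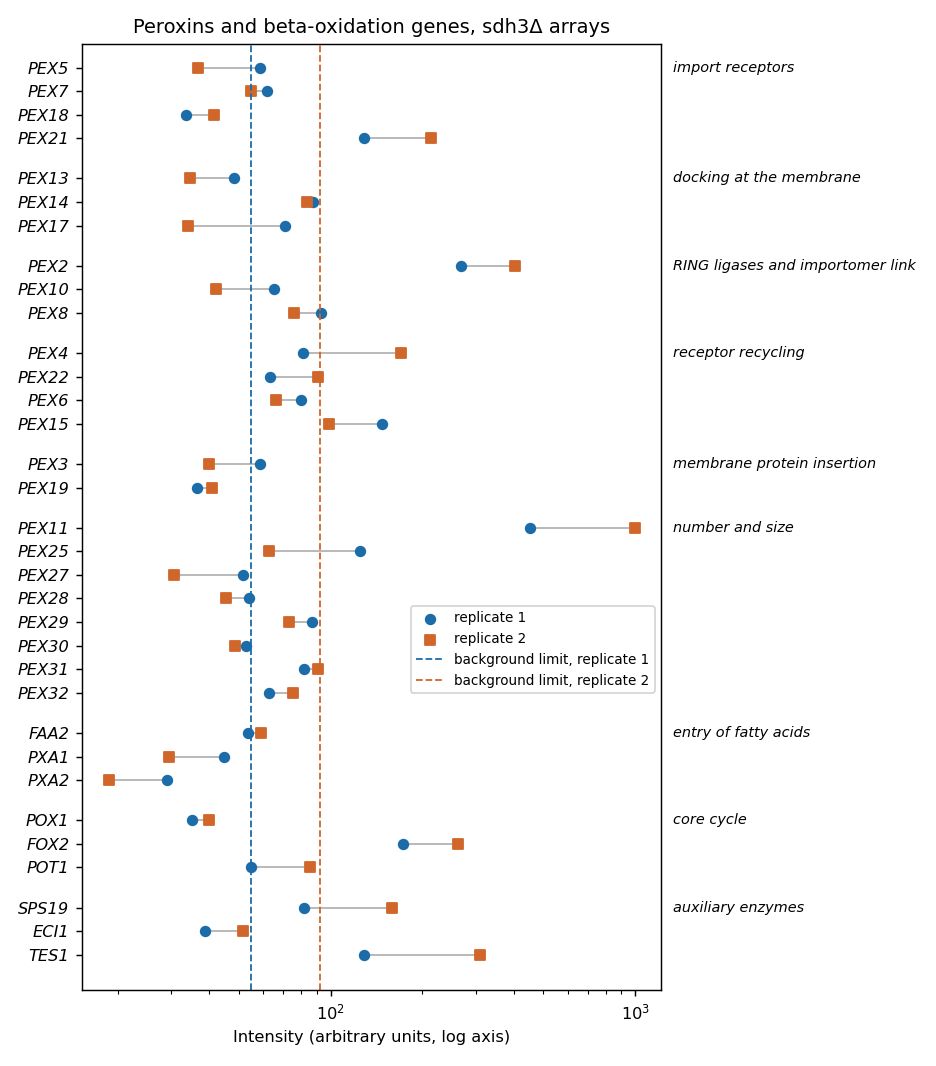
Intensity of each of the 33 genes (log axis, arbitrary units) on replicate 1 (circles) and replicate 2 (squares) of *sdh3*Δ, in blocks by role, with the background limit of each array as a dashed line (54.8 and 92.1). Points of 8 genes lie right of their own array's line on both arrays, with *PEX11* at 452 and 999.

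Import starts with the receptors. *PEX5*, the receptor for C-terminal targeting signals, had 58.8 on replicate 1 and 36.8 on replicate 2, and *PEX7*, the receptor for the N-terminal signal, had 61.8 and 54.7. Both exceeded the limit of replicate 1, by 3.92 and 6.95 units, and lay under that of replicate 2. *PEX18* and *PEX21* encode the partners with which Pex7 enters the organelle, and are known to overlap in this function. *PEX21* had 129 on replicate 1 and 214 on replicate 2, a mean of 171 ± 59.9 (SD, n = 2), both above background. *PEX18* had 33.7 and 41.4, both under the limits. Of this pair of partners of Pex7, *PEX21* was thus measured above background and *PEX18* was not, which leaves only an upper bound for *PEX18*.

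The docking complex receives the loaded receptors at the membrane and is formed by Pex13, Pex14 and Pex17. None of its 3 genes was above background on both arrays, against 40% of all genes. *PEX14* came nearest, at 87.3 and 83.4, with a log2 ratio of -0.07 on the deposited scale. *PEX13* was under both limits, at 48.3 and 34.5. *PEX17*, at 70.9 on replicate 1 and 34.0 on replicate 2, was the only member more than 2-fold lower on replicate 2, with a log2 ratio of -1.06. Of all genes, 12.6% were more than 2-fold lower there.

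Ubiquitin ligases of the RING type modify the receptors so that they can leave the membrane. *PEX2*, which encodes one of them, had 267 and 403, a mean of 335 ± 95.9 (SD, n = 2), above background on both arrays. Its partner *PEX10* had 65.3 and 42.2 and was above background on replicate 1 alone. *PEX8*, whose product links the docking and RING complexes from inside the organelle, had 93.0 and 75.6. The ligase genes *PEX2* and *PEX10* therefore differed in detection.

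Of the 4 genes of receptor recycling, 2 were above background on both arrays, near the share of 40% over all genes. *PEX4*, the ubiquitin-conjugating enzyme for the receptors, had 81.3 on replicate 1 and 170 on replicate 2. Both values passed, and the log2 ratio of 1.06 placed it among the genes more than 2-fold higher on replicate 2, which were 4.17% of all genes. *PEX22*, which anchors Pex4 at the membrane, had 63.3 and 90.7, the second of them 1.36 units under the limit. *PEX15*, the membrane anchor of the ATPase Pex6, had 148 and 98.6. It was above background on both arrays and the only one of the 8 such members that was lower on replicate 2, with a log2 ratio of -0.58. *PEX6*, whose product pulls the receptors out, had 79.8 and 66.2 and passed on replicate 1 alone. *PEX3* and *PEX19*, the membrane receptor and the soluble chaperone for newly made membrane proteins, had 58.6 and 40.03, and 36.3 and 40.8. Neither was above background on replicate 2.

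Of the 8 peroxins that set number and size, 1 was above background on both arrays, against 40% of all genes. This was *PEX11*, whose product elongates and divides peroxisomes. Its intensities were 452 on replicate 1 and 999 on replicate 2, a mean of 725 ± 387 (SD, n = 2) and a log2 ratio of 1.15. Each value lay far above the limit of its array. *PEX25* and *PEX27*, which encode proteins related to Pex11, had 125 and 62.7, and 51.8 and 30.6. Both were lower on replicate 2, where *PEX11* was higher, but *PEX27* was under both limits and *PEX25* was under that of replicate 2. *PEX25*, at a ratio of 1.99 between the arrays, lay just inside the 2-fold limit, as did *SPS19* at 1.95, while *PEX17* and *PEX4* lay just outside it at 2.09 each. *PEX28* and *PEX29*, which encode membrane proteins that help set number and size, had 53.9 and 45.3, and 86.9 and 73.2. The related *PEX30*, *PEX31* and *PEX32* had intensities between 52.7 and 82.1 on replicate 1 and between 48.7 and 90.7 on replicate 2, with log2 ratios of -0.11, 0.14 and 0.26. None of these 5 genes passed the limit of replicate 2.

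Fatty acids enter the pathway through Faa2, an acyl-CoA synthetase at the peroxisome, and through Pxa1 and Pxa2, which together form an ABC transporter for long-chain acyl-CoA. *FAA2* had 53.4 and 59.0, *PXA1* 44.6 and 29.6, and *PXA2* 29.1 and 18.7. All 3 genes were under the limit of both arrays, as were 26.7% of all genes.

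The core cycle has 3 enzymes, and they differed in detection. *POX1*, acyl-CoA oxidase, the entry enzyme, had 35.1 and 40.01 as the mean of its 4 probe sets on the log2 scale. Its single probe sets had between 27.3 and 43.3 on replicate 1 and between 27.5 and 54.6 on replicate 2, so that none passed on either array, and they differed in the direction between the arrays, with log2 ratios from -0.33 to 0.48. *FOX2*, which encodes the bifunctional enzyme of the middle steps, had 173 and 261, a mean of 217 ± 62.2 (SD, n = 2), above background on both arrays. *POT1*, the thiolase that closes the cycle and is imported through Pex7, had 54.9 and 85.5. It exceeded the limit of replicate 1 by 0.11 units and missed that of replicate 2.

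Unsaturated fatty acids need auxiliary enzymes. *SPS19*, 2,4-dienoyl-CoA reductase, had 81.9 on replicate 1 and 160 on replicate 2, a mean of 121 ± 55.0 (SD, n = 2), above background on both. *ECI1*, enoyl-CoA isomerase, had 38.9 and 51.7, under both limits. *TES1*, a peroxisomal acyl-CoA thioesterase, had 128 and 310, a mean of 219 ± 128 (SD, n = 2) and a log2 ratio of 1.27, the largest among the members. Of the genes for the auxiliary enzymes and the thioesterase, 2 of 3 were above background on both arrays, against 40% of all genes. All 3 had the higher value on replicate 2, as did 2480 of all 5656 genes. The limit of replicate 2 was the higher one, which favors this direction in the 2 that passed.

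**Figure D2:**
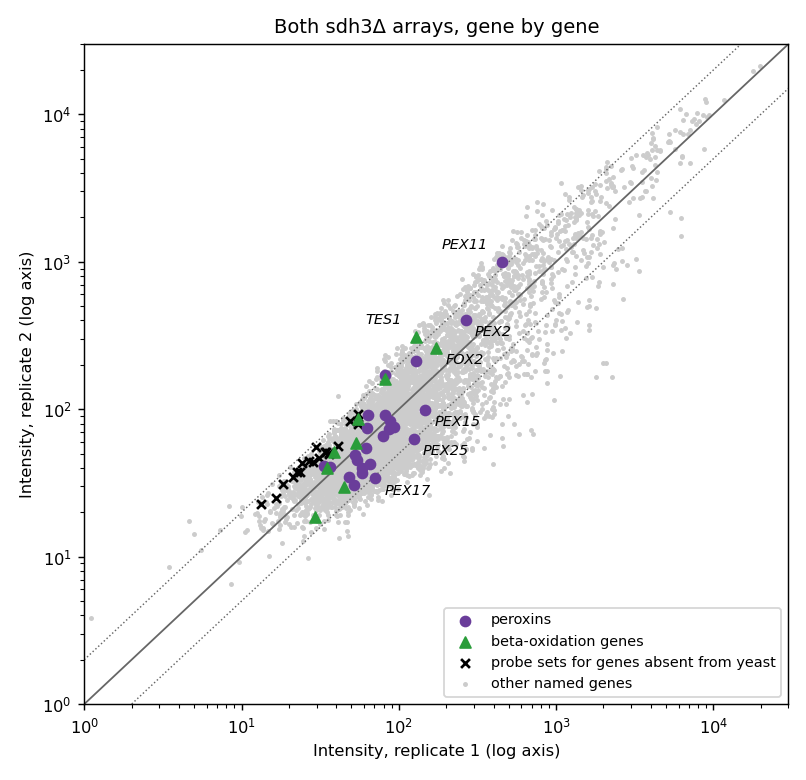
Intensity of each gene on replicate 1 (x axis) and replicate 2 (y axis) of *sdh3*Δ, both log axes, for peroxins (circles), beta-oxidation genes (triangles), 19 control probe sets for genes absent from yeast (crosses) and the other named genes (grey), with the line of equality and dotted lines at 2-fold. All 19 crosses lie above the line of equality, and *PEX11*, *PEX4* and *TES1* lie above the upper dotted line.

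Of the 33 members, 3 (*PEX4*, *PEX11* and *TES1*) were more than 2-fold higher on replicate 2 and 1 (*PEX17*) was more than 2-fold lower, so 4 were apart by that measure, against 16.7% of all genes. Peroxins had a median log2 ratio of -0.21, with 9 of 24 higher on replicate 2, and beta-oxidation genes had one of 0.41, with 7 of 9 higher, on the deposited scale. Over all 5656 genes the median was -0.12, with 2480 higher on replicate 2. With the arrays scaled on the 19 control probe sets instead, the median of the beta-oxidation genes turned to -0.26 and that of the peroxins to -0.88. The median of all genes was then -0.79, so beta-oxidation genes stayed above it and peroxins below it. Under this scaling 10 members were more than 2-fold lower on replicate 2 and none more than 2-fold higher. Of all 5656 genes, 2219 were then lower and 5 higher by that measure. Scaled on the hybridization controls, the medians of beta-oxidation genes and peroxins were -0.082 and -0.71. The scaling on controls was chosen after the data were seen, and it moved the median of all genes by -0.67 or, with hybridization controls, by -0.49.

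Members above background on both arrays were mostly higher on replicate 2, 7 of 8 with a median log2 ratio of 0.85, a count that was also 7 with the arrays scaled on the hybridization controls and 5 on the control probe sets for absent genes. Of all 2261 genes above background on both arrays, 63.3% were higher there, and 9.82% more than 2-fold, as were 3 of the 8 members. A gene had to pass the higher limit of replicate 2 to be counted here, which favors genes with a high value on that array. Of the other 25 members, 16 were lower on replicate 2, with a median log2 ratio of -0.25, against 69.1% of all genes not above background on both arrays. None of these 25 had a ratio as high as the median of the 19 control probe sets, the highest being 0.64 in *POT1*. The share over all genes not above background on both arrays was not counted, but their median log2 ratio was -0.31. The 14 members above the limit of replicate 1 alone could not exceed 0.75, the log2 ratio between the limits. For these 14 the selection thus largely fixed the comparison.

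**Figure D3:**
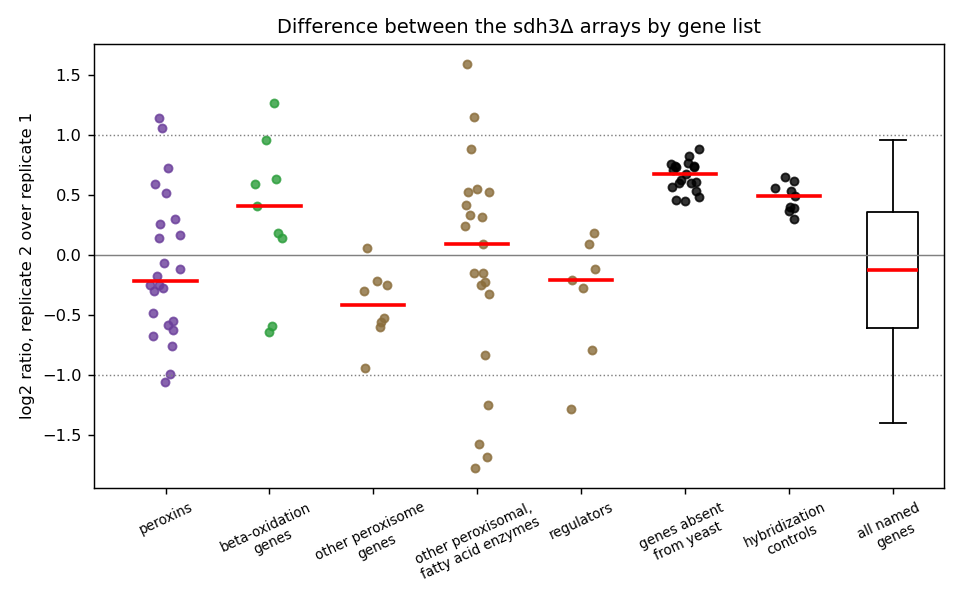
Log2 ratio of replicate 2 over replicate 1 of *sdh3*Δ for each gene or control probe set (points) by list, with the median as a bar and, for all 5656 named genes, a box of the quartiles with whiskers at the percentiles 5 and 95. Peroxins have a median of -0.21 and beta-oxidation genes of 0.41 on the deposited scale. Scaled on the controls for absent genes, beta-oxidation genes have -0.26 and all genes -0.79. The controls have medians of 0.67 and 0.49 on the deposited scale, with no control below 0.

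Next to the members stand the factors that regulate them. *OAF1*, the oleate-binding activator, had 90.7 and 96.6 and was above background on both arrays. Its partner *PIP2* had 71.4 and 59.1, and *ADR1*, an activator of genes repressed by glucose, had 45.5 and 39.3, under both limits. *MIG1*, the glucose repressor, had 109 and 100.1, above background on both. Of the 7 regulators listed, *OAF1* and *MIG1* passed both limits, against 40% of all genes. On replicate 2 they did so by 4.50 and 7.99 units. *SNF4*, a subunit of the Snf1 kinase that relieves glucose repression, was the only regulator more than 2-fold apart, at 139 and 57.2. Of all genes, 16.7% were apart by that measure.

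Among 8 other genes of peroxisome structure that were measured, 1 was above background on both arrays, against 40% of all genes. This was *PEX34*, at 123 and 99.6, the second of them 7.54 units over the limit. *PEX34* encodes a peroxin that acts with the Pex11 family. Of the 8, 7 were lower on replicate 2, with a median log2 ratio of -0.42, against 3176 of all 5656 genes and a median of -0.12.

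Other peroxisomal and fatty acid enzymes were above background on both arrays in 12 of 21 cases (57.1%), against 40% of all genes. Among the members this held for 8 of 33. *CIT2*, peroxisomal citrate synthase of the glyoxylate cycle, had 1577 on replicate 1 and 491 on replicate 2, and *MDH3*, peroxisomal malate dehydrogenase, which reoxidizes NADH from beta-oxidation, had 328 and 95.8. Both were more than 2-fold lower on replicate 2, with log2 ratios of -1.68 and -1.77. *LPX1*, a peroxisomal lipase, had 185 and 412, and *YAT1*, a carnitine acetyltransferase of the outer mitochondrial membrane, had 253 and 765. Both were more than 2-fold higher, with log2 ratios of 1.16 and 1.59 on the deposited scale. *FAA1*, an acyl-CoA synthetase that activates imported fatty acids, and *FAT1*, of fatty acid uptake, had 189 and 63.3, and 133 and 55.8, above background on replicate 1 alone. Their log2 ratios of -1.58 and -1.25 made them more than 2-fold lower on replicate 2 too. The 8 enzymes not yet named that were above background on both arrays, *AAT2*, *ANT1*, *CRC1*, *FAA4*, *GPD1*, *NPY1*, *PNC1* and *STR3*, lay within 2-fold between the arrays. *CTA1*, peroxisomal catalase, which removes the hydrogen peroxide made by Pox1, had 33.1 and 41.2 and like *POX1* was under both limits. Of the 21 enzymes, 4 were thus more than 2-fold lower on replicate 2 and 2 more than 2-fold higher. Of all genes, 12.6% were lower and 4.17% higher by that measure.

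**Figure D4:**
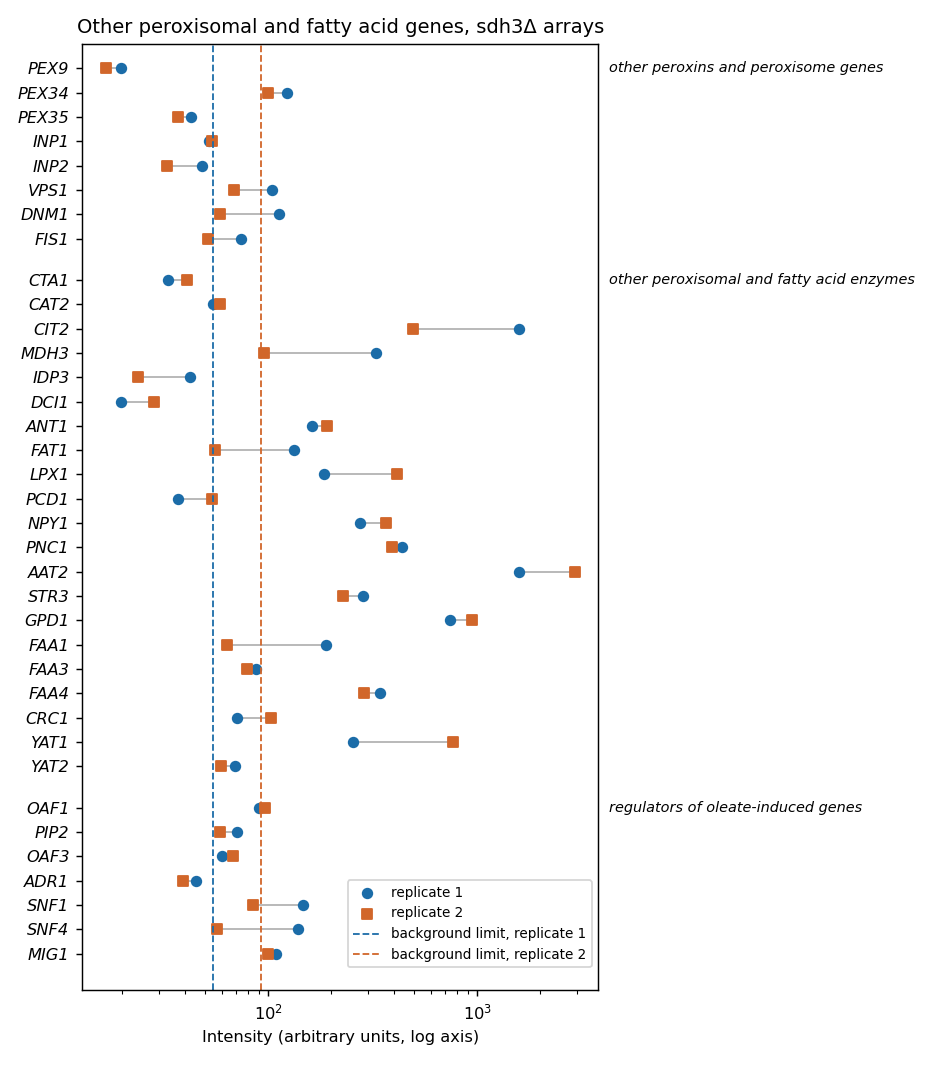
Intensity (log axis, arbitrary units) on replicate 1 (circles) and replicate 2 (squares) of *sdh3*Δ for 36 other genes of peroxisomes, fatty acid metabolism and their regulation, in blocks by list, with the background limit of each array as a dashed line. *CIT2* (1577 and 491) and *YAT1* (253 and 765) show the wide gaps between replicates in opposite directions.

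In the R64 gene order, 4 of the 8 members above background share their upstream side with a gene on the opposite strand. The other 4 have an upstream neighbour on the same strand. Most of the remaining members also have one on the opposite strand, a larger share than among these 8. The share over all genes was not counted, so the orientation is not given as a trait of the members above background. The neighbours were looked up after the values were seen. *PEX4* lies beside *PHB1*, which encodes a prohibitin of the inner mitochondrial membrane and had 291 and 54.3, a log2 ratio of -2.42 against 1.06 for *PEX4*. *PEX11* lies beside *PSF3*, a subunit of the GINS replication complex, which had 47.0 and 35.6. *SPS19* lies beside *SPS18*, a sporulation gene, which had 29.9 and 35.2. Both of these neighbours were under the limit of both arrays. *PEX2* lies beside *OPT1*, an oligopeptide transporter, which was above background on both arrays at 98.4 and 103. Of these 4 neighbours, 1 was thus above background on both arrays, against 40% of all genes.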

How the data were processed

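Arrays of 2 *sdh3*Δ samples (replicates 1 and 2, numbered in the labels) were analysed. The values deposited by the authors are linear intensities, 1 for each of 9335 probe sets. They had scaled the scans in Microarray Suite, version 5, normalized the arrays in dChip and fitted its model to the perfect match probes. Gene names came from the platform annotation, updated through the R64 table, for 6504 probe sets with 1 gene each, and probe sets with several genes (328) or with none were not used. Where a gene had several probe sets, their mean log2 value was taken, and 11 probe sets at or below 0 on an array were left out. A gene was above background where it exceeded the highest of 19 control probe sets on that array. Genes were called apart at a ratio over 2-fold between the arrays. With 1 group, no test was run. All members were named; of other lists, genes above background on both arrays or more than 2-fold apart could be, with a few others chosen after their values were seen. Ratio calls were checked on simulated data with far less noise than these arrays, which tests the code and not the calls made here. The members and lists were chosen with earlier results of these data known. Python 3.11.15, numpy 2.4.6, pandas 2.3.3 and matplotlib 3.10.9 were used. Sequences are not used here. Some listed genes are not reported here.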

Additional observations from a re-analysis of the deposited data

How the results depend on the processing

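No paired analysis was possible because the series holds 1 group. With the limit at the mean plus 2 SD of the controls, 10 members were above background on both arrays, against 42.4% of all genes. With the limit at the mouse probe sets, or with the highest probe set of each gene, 8 were. The highest control was itself a mouse probe set, so the mouse limit was the same as the main one. Taking the highest probe set could change only *POX1* among the members. These 2 settings therefore hardly tested the count. With the second highest control probe set as the limit, 12 members passed, 8 of them peroxins, against 43.7% of all genes. Against the intensity of *SDH3* as the limit, 32 members passed, 24 of them peroxins and 8 beta-oxidation genes, as did 92.5% of all genes. The intensity of *SDH3* was under the median of the 19 control probe sets on both arrays (29.8 and 47.0). Detection thus rests on the choice of limit. With either array left out, 8 to 22 members, 5 to 18 peroxins and 3 to 4 beta-oxidation genes were above background. The high values were those without replicate 2, where 73.1% of all genes passed, against 40.2% without replicate 1. With a pseudocount of 32, 2 members were more than 2-fold higher on replicate 2 and 0 lower, against 149 and 342 of all 5656 genes. With the arrays centred on the median of all probe sets, 4 members were higher and 0 lower, against 344 and 599 of all genes. At a limit of 1.5-fold, 15 members were apart, 8 higher and 7 lower on replicate 2, and all genes were not counted at that limit. Scaling on the control probe sets for absent genes gave 10 members apart, 10 lower and 0 higher, against 2219 lower and 5 higher of all genes. The medians were then -0.88 for peroxins, -0.26 for beta-oxidation genes and -0.79 for all genes. With the hybridization controls, 9 members were apart, 9 lower and 0 higher, against 1701 lower and 17 higher of all genes. The median of beta-oxidation genes was then -0.082. Both scalings on controls subtract 1 constant from every log2 ratio, 0.67 or 0.49. Each constant is larger than the beta-oxidation median of 0.41 and so turns its sign. The other alternatives kept the sign of both medians.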
